A study of Mus musculus with 5 samples.

Results

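Narrow peaks of H2AK119Ub were chosen by their width alone, as the peaks whose deposited end minus start was below 5000 bp. They numbered 292 of the 5132 peaks listed for 4 ChIP-seq libraries of mouse haematopoietic progenitors (5.69%, 95% interval 5.07 to 6.36). The other 4840 peaks are called wider peaks. Because width chose the members, their widths, and the scores that come from the same peak calls, are given as a description with no test.

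H2AK119Ub is a single ubiquitin on a lysine of histone H2A. It is placed by RING1A and RING1B, the ubiquitin ligases of Polycomb repressive complex 1 (PRC1), and removed by deubiquitinases such as BAP1. The mark is best known from broad domains over silent developmental genes, often around CpG islands, and in blood progenitors PRC1 is known for holding differentiation genes in check.

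The cells were lineage-negative bone marrow progenitors of C57BL/6 mice, put into liquid culture, and all groups shared the genotype R26CreERT2;Ring1a-/-;Ring1bf/f;Cdkn2a-/-. Ring1a was therefore deleted and Ring1b was floxed under a tamoxifen-activated Cre expressed from the Rosa26 locus; the labels do not say whether Cre had been activated. One culture was transduced with the homeobox gene HOXA9, another with the acute promyelocytic leukaemia fusion PML-RARa, a further one with the mixed-lineage leukaemia fusion MLL-AF9, and the last was left non-transduced. With 1 library per group nothing could be tested between groups, and every difference is one between single libraries. A group transduced without an oncogene was not analysed here, so transduction and oncogene cannot be told apart. Neither the age of the animals nor the number pooled per culture is stated in the labels. Peak lists hold no expression values, so the labelled cell type could not be checked against markers, and the depth of the libraries is unknown.

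Narrow peaks were a small part of every list. The HOXA9 list held 29 among 620 peaks (4.68%, 3.15 to 6.65), the PML-RARa list 126 among 1772 (7.11%, 5.96 to 8.41), the MLL-AF9 list 76 among 1408 (5.40%, 4.28 to 6.71) and the non-transduced list 61 among 1332 (4.58%, 3.52 to 5.84). At this limit the PML-RARa share was the largest, and its interval did not overlap that of the non-transduced list. The order depended on the limit: with 7.5 kb the MLL-AF9 share, 241 of 1408 (15.2 to 19.2%), was above the PML-RARa share, 280 of 1772 (14.1 to 17.6%), with overlapping intervals. Together the narrow peaks spanned 996 kb, or 0.927% of the length covered by all peaks. Ranges in brackets after a share are exact Clopper-Pearson 95% intervals, and those after a median are 95% intervals from order statistics. They cover counting error alone and take the peaks of a list as independent.

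Narrow peaks were mostly a few kb wide, and most of the very short ones were in PML-RARa, the list with the most narrow peaks. The median width was 3.69 kb for HOXA9, 3.61 kb for PML-RARa, 3.68 kb for MLL-AF9 and 3.93 kb for the non-transduced list. Of the 292, 110 measured 4 to 5 kb, and a further 165 peaks just beyond the limit measured 5 to 6 kb. The widest narrow peak and the narrowest wider peak were 4932 and 5002 bp in HOXA9, 4989 and 5016 bp in PML-RARa, 4951 and 5016 bp in MLL-AF9, and 4986 and 5034 bp in the non-transduced list. The limit therefore cut through a continuous range of widths. Of 7 peaks under 1 kb, 6 were in the PML-RARa list and 1 in the non-transduced list. Of 42 under 2 kb, 2 were in HOXA9, 24 in PML-RARa, 7 in MLL-AF9 and 9 in the non-transduced list. All narrow peaks numbered 29, 126, 76 and 61 in the same order, so these counts reflect list size as well.

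Narrow peaks ranked low within their full lists, although some stood near the top. The authors' score was turned into a percentile, the share of peaks of the same list with a lower score, with ties counted at their middle. The median percentile of narrow peaks was 35.6 for HOXA9 (21.8 to 53.5), 41.6 for PML-RARa (33.8 to 41.6), 24.3 for MLL-AF9 (21.3 to 38.6) and 29.0 in the non-transduced list (29.0 to 46.2). Wider peaks had medians of 50.9, 51.0, 51.5 and 50.5 in the same order of lists. The intervals of narrow and wider peaks overlapped in HOXA9, where the wider interval ran from 45.2 to 55.0, and not in the other lists. At or above the 75th percentile of their list stood 5 of 29 narrow peaks in HOXA9, 18 of 126 in PML-RARa, 6 of 76 in MLL-AF9 and 4 of 61 in the non-transduced list. Below the 25th percentile stood 11 in HOXA9, 46 in PML-RARa, 39 in MLL-AF9 and 18 in the non-transduced list. Across all peaks of a list, width and score had a Spearman rho of 0.27 in HOXA9 (n = 620), 0.24 in PML-RARa (n = 1772), 0.26 in MLL-AF9 (n = 1408) and 0.24 in the non-transduced list (n = 1332). Among the narrow peaks alone rho lay between -0.11 (PML-RARa) and 0.07 (HOXA9). These correlations run across peaks of 1 library each, which share its depth and background, and are descriptions.

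**Figure D1:**
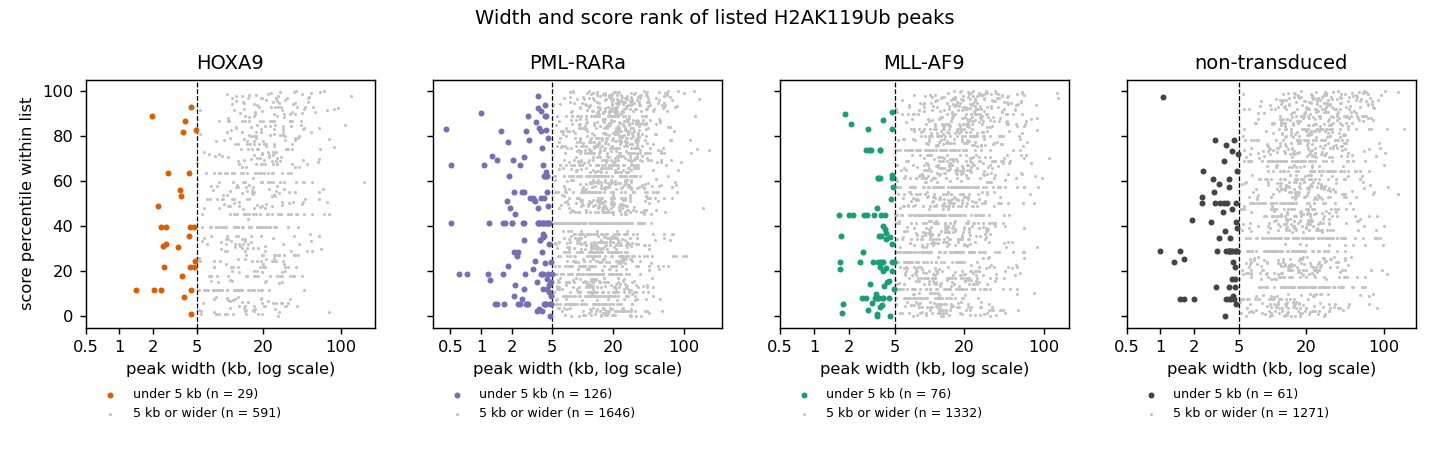
Each point is a listed peak, with its width in kb on a log axis and its score percentile within its own list (0 lowest, 100 highest); coloured points are peaks under 5 kb, grey points wider peaks, and the dashed line is the 5 kb limit. Narrow peaks gather below the 50th percentile in every list, with a few near the top, and the horizontal rows of points are scores that many peaks of a list share.

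Narrow peaks lay farther from the wider peaks of their list than wider peaks lay from each other. Measured between the nearest ends, the median distance of a narrow peak to the nearest wider peak of its own list was 541 kb for HOXA9 (444 to 1434), 263 kb for PML-RARa (159 to 532), 335 kb for MLL-AF9 (197 to 756) and 245 kb in the non-transduced list (136 to 626). Wider peaks lay closer to their nearest other wider peak, with medians of 331 kb for HOXA9 (276 to 374), 107 kb for PML-RARa (92.8 to 117), 141 kb for MLL-AF9 (124 to 162) and 100.2 kb in the non-transduced list (85.1 to 121). Narrow and wider intervals did not overlap in any of the 4 lists. Within 50 kb of a wider peak of the same list lay 1 of 29 narrow peaks in HOXA9, 26 of 126 in PML-RARa, 14 of 76 in MLL-AF9 and 14 of 61 in the non-transduced list. Farther than 1 Mb from any wider peak of their list lay 12, 37, 23 and 18 in the same order. Of the wider peaks, 17.5%, 35.7%, 31.9% and 37.2% lay within 50 kb of another wider peak, in the same order. Beyond 1 Mb lay 26.9% of wider peaks in HOXA9, 10.5% in PML-RARa, 14.1% in MLL-AF9 and 12.1% in the non-transduced list. The narrow shares beyond 1 Mb were 41.4%, 29.4%, 30.3% and 29.5%.

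**Figure D2:**
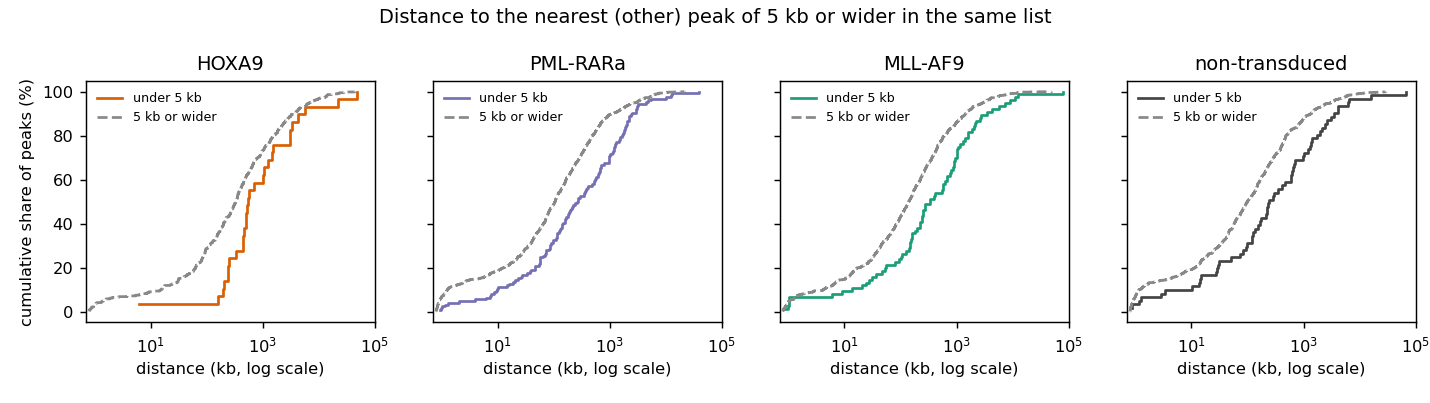
Cumulative share of peaks (%) against the distance in kb, on a log axis, to the nearest peak of at least 5 kb in the same list; the coloured line is for narrow peaks and the dashed grey line for wider peaks, whose own position is left out. The narrow curve runs to the right of the wider one over most of its course in all 4 lists, with medians of 541, 263, 335 and 245 kb for narrow peaks.

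Narrow peaks of different libraries lay at different distances from the wider peaks of the other lists. In HOXA9 17 of 29 narrow peaks overlapped a wider peak of another list. Narrow PML-RARa peaks had a median distance of 238 kb (142 to 356) to the nearest wider peak of any other list, and 12 of 126 overlapped one. For MLL-AF9 the median was 52.0 kb (6.29 to 143), and 25 of 76 overlapped one. The non-transduced median was 0.927 kb (0 to 101), with 29 of 61 overlapping. Most wider peaks overlapped a wider peak of another list, 551 of 591 in HOXA9, 1139 of 1646 in PML-RARa, 1034 of 1332 in MLL-AF9 and 982 of 1271 in the non-transduced list. Peaks with no peak of any list, of any width, within 100 kb numbered 4 of 29 in HOXA9 (13.8%), 59 of 126 in PML-RARa (46.8%, 37.9 to 55.9), 23 of 76 in MLL-AF9 (30.3%, 20.2 to 41.9) and 17 of 61 in the non-transduced list (27.9%, 17.1 to 40.8). The shares of wider peaks standing alone in this way were 3.38% in HOXA9, 12.1% in PML-RARa, 9.83% in MLL-AF9 and 6.45% in the non-transduced list.

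Fewer narrow peaks than wider peaks were found again in another library. A narrow peak was counted as matched where it shared at least 1 bp with a peak of any width in another list. In HOXA9 23 of 29 narrow peaks were matched in at least 1 other list (79.3%, 60.3 to 92.0), beside 92.6% of all peaks of that list. In PML-RARa it was 31 of 126 (24.6%, 17.4 to 33.1), beside 67.3% of all its peaks. The MLL-AF9 list had 40 of 76 matched (52.6%, 40.8 to 64.2), beside 77.0% of all its peaks. The non-transduced list had 37 of 61 matched (60.7%, 47.3 to 72.9), beside 76.8% of all its peaks. The wider peaks were matched at 93.2% in HOXA9 (90.9 to 95.1), 70.5% in PML-RARa (68.3 to 72.7), 78.4% in MLL-AF9 (76.1 to 80.6) and 77.6% in the non-transduced list (75.2 to 79.8). The narrow and wider intervals overlapped in HOXA9 and not in the other lists. Many of the partners came from PML-RARa, and with that list not searched the narrow shares were 55.2% for HOXA9, 22.4% for MLL-AF9 and 42.6% for the non-transduced list. With the MLL-AF9 list not searched, 11.9% of narrow PML-RARa peaks were matched.

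A wide peak meets others more easily because it is long, so the same count was made with the midpoint of each peak. By midpoint the narrow shares did not move in any list, and wider peaks were matched at 91.4% in HOXA9 (88.8 to 93.5), 65.9% in PML-RARa (63.6 to 68.2), 76.4% in MLL-AF9 (74.0 to 78.6) and 72.9% in the non-transduced list (70.4 to 75.4). By this measure the narrow and wider intervals met in HOXA9 and in the non-transduced list, and stayed apart in MLL-AF9 and PML-RARa. The midpoint share in PML-RARa was 18.9% for peaks under 2.5 kb (n = 37), 27.0% from 2.5 to 5 kb (n = 89), 46.8% from 5 to 7.5 kb (n = 154) and 84.9% from 50 kb upward (n = 86). It was also higher for the widest peaks in HOXA9, 71.4% under 2.5 kb (n = 7) and 97.1% from 50 kb upward (n = 35), and in MLL-AF9, 63.6% under 2.5 kb (n = 11), 50.8% from 2.5 to 5 kb (n = 65) and 91.0% from 50 kb upward (n = 67). In the non-transduced list it was 9 of 12 under 2.5 kb, 57.1% from 2.5 to 5 kb (42.2 to 71.2), 76.2% from 10 to 20 kb (72.0 to 80.1) and 71.3% from 50 kb upward (61.8 to 79.6). The intervals of the classes from 2.5 to 5 kb and from 50 kb upward stood apart in PML-RARa and MLL-AF9 and overlapped in HOXA9, and in the non-transduced library the 10 to 20 kb class stood clear of the class from 2.5 to 5 kb. Whether the climb differed between libraries was not tested.

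**Figure D3:**
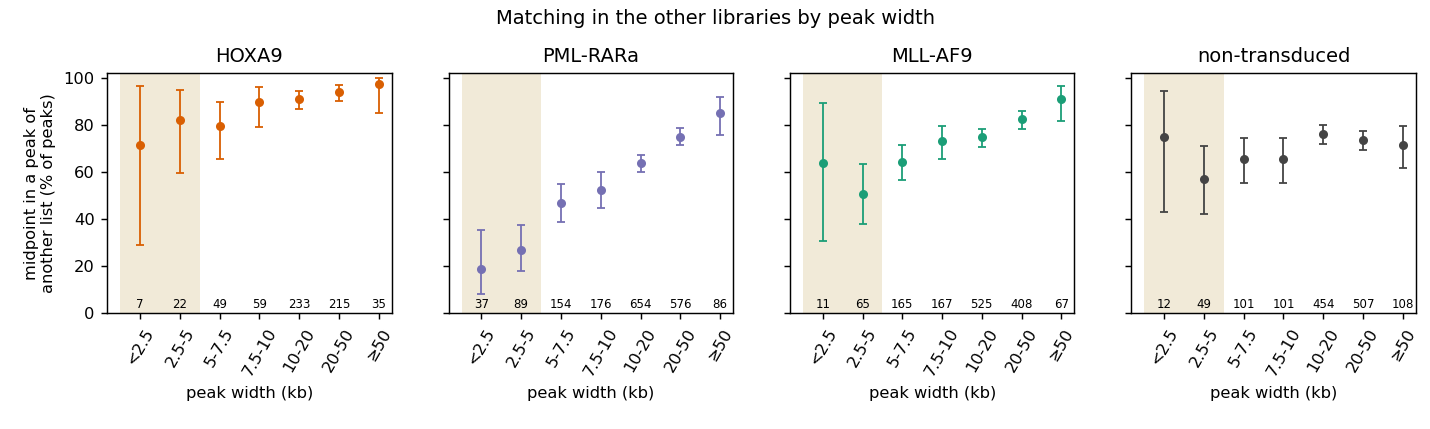
Share of peaks (%) whose midpoint lay in a peak of at least 1 other list, by width class in kb; bars are exact 95% intervals, the numbers along the base are peaks per class, and the shaded classes are the narrow peaks. In PML-RARa the share climbs with width from 18.9% to 84.9%, and in the non-transduced list it is 57.1% from 2.5 to 5 kb, 76.2% from 10 to 20 kb and 71.3% in the last class.

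By pairs of libraries, narrow HOXA9 peaks were matched in PML-RARa at 16 of 29 (55.2%, beside 80.3% of all HOXA9 peaks), in MLL-AF9 at 14 (48.3%, beside 72.4%) and in the non-transduced list at 12 (41.4%, beside 66.3%). Of the 126 narrow PML-RARa peaks, 9 were matched in HOXA9 (7.14%, beside 28.0% of all PML-RARa peaks), 23 in MLL-AF9 (18.3%, beside 50.8%) and 8 in the non-transduced list (6.35%, beside 48.2%). Narrow MLL-AF9 peaks were matched in HOXA9 at 7 of 76 (9.21%, beside 32.5% of all MLL-AF9 peaks), in PML-RARa at 35 (46.1%, beside 64.6%) and in the non-transduced list at 15 (19.7%, beside 54.5%). The non-transduced narrow peaks were matched in HOXA9 at 10 of 61 (16.4%, beside 31.3% of all non-transduced peaks), in PML-RARa at 30 (49.2%, beside 64.1%) and in MLL-AF9 at 23 (37.7%, beside 57.4%). All 12 narrow shares were below the share of all peaks of the same list.

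The matching of narrow peaks was lopsided in every pair of libraries, with the larger share in the shorter list. Between HOXA9 and PML-RARa, 55.2% of narrow HOXA9 peaks and 7.14% of narrow PML-RARa peaks were matched. In the pair of PML-RARa and non-transduced, PML-RARa held a peak at 30 of 61 non-transduced narrow peaks, 25 of them at a wider peak. The non-transduced list held a peak at 8 of 126 narrow PML-RARa peaks, 3 of them at a wider peak. These were 49.2% and 6.35%, beside 64.1% and 48.2% of all peaks. The PML-RARa list was also the longest, with 1772 peaks against 1332, and the bearing of list length on this pair was not tested. The shares at equal length that follow are for a match in any other list, not for this pair. With each list cut to its 620 best peaks by score, the narrow peaks matched were 51.7% in HOXA9 (n = 29, 32.5 to 70.6), 14.8% in PML-RARa (n = 27, 4.19 to 33.7), 35.3% in MLL-AF9 (n = 17, 14.2 to 61.7) and 35.7% in the non-transduced list (n = 14, 12.8 to 64.9). At this equal length the wider peaks were matched at 73.6% in HOXA9, 72.0% in PML-RARa, 75.3% in MLL-AF9 and 68.8% in the non-transduced list. PML-RARa was the lowest at this length too, but the intervals of the 4 narrow shares overlap.

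A missing match does not show that the mark was absent, since the peak numbers in each list have gaps and a numbered call may have gone unlisted. Of the 118 narrow PML-RARa peaks with no non-transduced partner, 63 lay where no non-transduced number was missing, so no numbered call had been left out there (53.4%). Of the 95 narrow PML-RARa peaks matched in none of the other lists, 19 lay where no number was missing in any of them. The corresponding counts were 0 of 6 in HOXA9, 6 of 36 in MLL-AF9 and 4 of 24 in the non-transduced list.

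Narrow peaks that were matched fell on wider peaks and on other narrow peaks alike. Over all lists, 161 of 292 narrow peaks met no peak of another list, 64 met only wider peaks, 48 only narrow ones and 19 both. Matches in all 3 other lists were found for 7 narrow peaks in HOXA9, 2 in PML-RARa, 4 in MLL-AF9 and 5 in the non-transduced list. As shares these were 24.1% for HOXA9, 1.59% for PML-RARa, 5.26% for MLL-AF9 and 8.20% for the non-transduced list, while wider peaks had 52.5% for HOXA9, 19.3% for PML-RARa, 23.8% for MLL-AF9 and 24.5% for the non-transduced list. Of the 31 matched narrow peaks of PML-RARa, 19 met only narrow peaks, compared with 8 of 37 in the non-transduced list, where 24 met only wider ones.

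**Figure D4:**
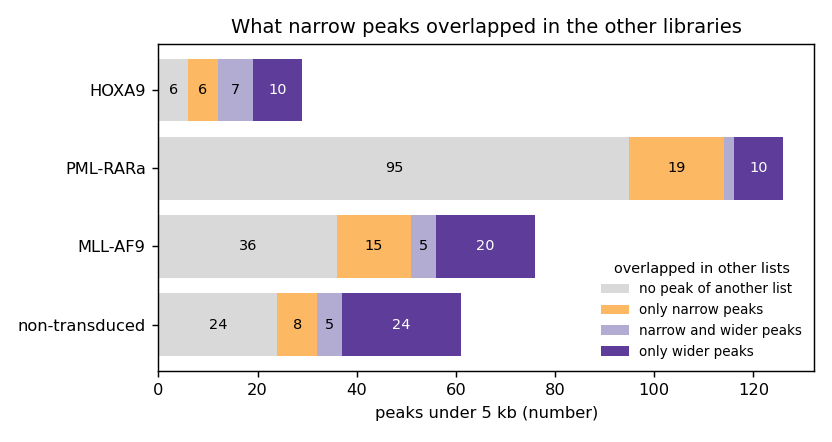
Number of narrow peaks in each list by what they overlapped, by at least 1 bp, in the other 3 lists. The PML-RARa bar is mostly grey, with 95 of 126 narrow peaks meeting no other list, while 23 of 29 HOXA9 narrow peaks met at least 1.

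Many of the wider partners were themselves short. In 126 pairs of a narrow peak with a wider peak of another list, the partner had a median width of 9.60 kb (8.38 to 10.7), and 69 partners were under 10 kb. Of all wider peaks, 49 measured 5 to 7.5 kb and 59 measured 7.5 to 10 kb among 591 in HOXA9. The same classes held 154 and 176 of 1646 in PML-RARa, and 165 and 167 of 1332 in MLL-AF9. In the non-transduced list they held 101 each of 1271. The partner was a median 2.72 times as long as the narrow peak. In 92 of the 126 pairs the narrow peak lay wholly inside its partner. Its midpoint fell in the outer part of the partner, nearer an end than the centre, in 63 pairs and in the inner part in 63. The outer part held 10 of 27 HOXA9 pairs, 7 of 17 PML-RARa pairs, 16 of 34 MLL-AF9 pairs and 30 of 48 non-transduced pairs. Over all pairs the outer and inner parts thus held equal numbers, but this split does not show where narrow peaks tend to lie. A narrow peak wholly inside a partner of little more than its own length can only fall in the inner part. The pairs also came from 83 narrow peaks, some of them counted more than once. The longest partner, 66.9 kb, belonged to a non-transduced narrow peak.

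Narrow peaks of several libraries met at some positions, and the spread of their ends there is given as a description. Because these peaks had to overlap and be under 5 kb, the rule itself bounds that spread. There were 32 positions at which narrow peaks of at least 2 lists overlapped, 29 of them with 2 lists and 3 with 3 lists, and they held 67 narrow peaks. No position was narrow in all 4 lists. At the 30 positions off chromosome 18, the left ends spread over a median of 278 bp and the right ends over a median of 168 bp, and at 24 positions both ends agreed within 1000 bp. Of these 30 positions, 21 had no wider peak in a further list, and 15 had no peak in the non-transduced list. Narrow peaks of PML-RARa and MLL-AF9, with no peak in the other 2 lists, made up 9 of the 30. These lists held the most narrow peaks, 126 in PML-RARa and 76 in MLL-AF9 of the 292. Of all those narrow peaks, 6.35% in PML-RARa and 19.7% in MLL-AF9 were matched in the non-transduced list. The counts of positions therefore reflect list size and matching in general as well, and were not tested.

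Ordered by the number of lists and then by mean score percentile, the first of these positions lay on chromosome X, at 137529289 to 137534051 (mm9, as are all positions here). It was marked over 4.44 kb in HOXA9 (score 1215), 3.99 kb in MLL-AF9 (score 1272) and 3.39 kb in the non-transduced list (score 928), and the nearest PML-RARa peak was 1381 kb from the HOXA9 one. The HOXA9 peak was the highest-scoring narrow peak of its list, at percentile 93.0. A position on chromosome 8, 108857597 to 108862570, was narrow, at 3.52 kb for HOXA9, 4.35 kb for PML-RARa and 4.11 kb for MLL-AF9, and held a peak of 5.59 kb, just over the limit, in the non-transduced list. The shortest of the positions shared by 3 lists was on chromosome 4 at 155628435 to 155630089. It measured 1581 bp in PML-RARa (percentile 82.1), 1628 bp in MLL-AF9 (percentile 45.2) and 1501 bp in the non-transduced list (percentile 29.0), with left ends within 154 bp and right ends within 27 bp. The 3 libraries thus placed this short peak at nearly the same ends but at different ranks.

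Further positions were shared by narrow peaks of 2 libraries. On chromosome 16 at 34571241 to 34573203 the HOXA9 peak (1.96 kb) and the PML-RARa peak (1.92 kb) ended within 1 bp of each other. MLL-AF9 had a peak of 8.35 kb and the non-transduced library one of 7.35 kb over the same place. On chromosome 15, at 100428097 to 100432469, the PML-RARa peak (4.37 kb) stood at percentile 88.8 of its list and the non-transduced peak (3.71 kb) at percentile 50.5. PML-RARa and MLL-AF9 alone shared chromosome 12, 73170153 to 73174102, with widths of 3.94 and 3.58 kb and right ends within 7 bp. They also shared chromosome 14, 122888107 to 122891248, with widths of 2.64 and 3.14 kb. There the PML-RARa peak lay 1.285 kb from a wider peak of 26.4 kb in its own list. The MLL-AF9 peak lay 1.032 kb from a wider one of 26.2 kb in its list, so both flanked a longer peak. HOXA9 and PML-RARa alone shared chromosome 17, 35604564 to 35608501, with widths of 3.94 and 3.73 kb, and the nearest non-transduced peak was 28.3 kb away.

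**Figure D5:**
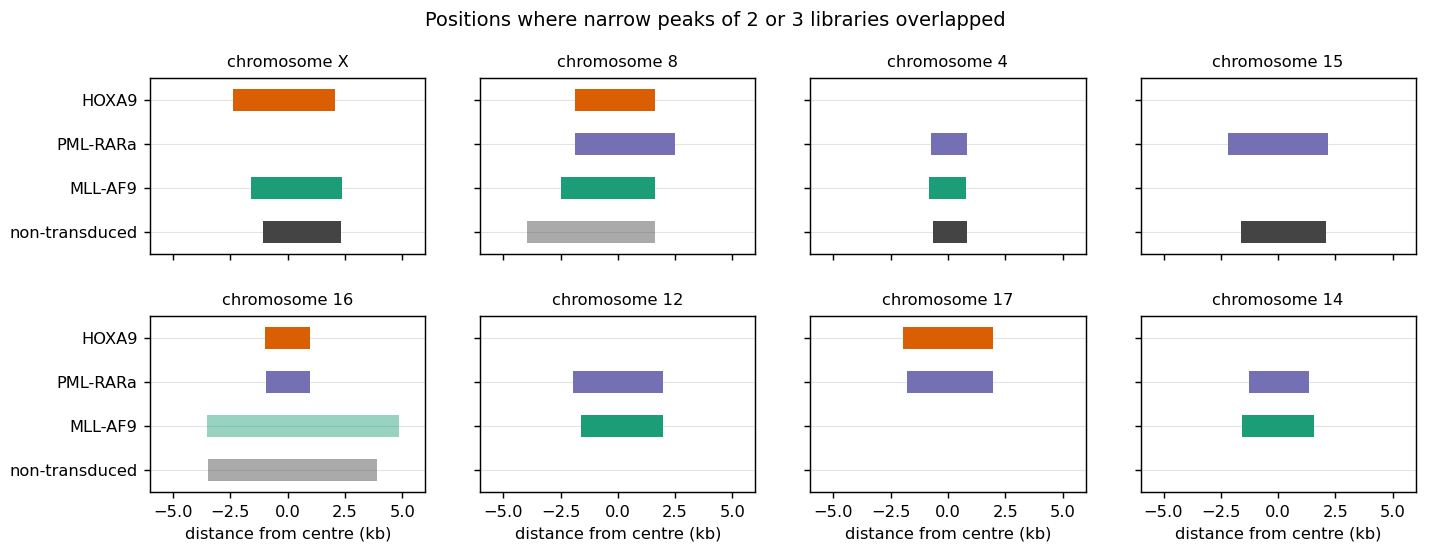
The first 8 positions, by number of lists and then mean score percentile, where narrow peaks of at least 2 libraries overlapped, each drawn to scale as distance in kb from its centre. Solid bars are narrow peaks and pale bars are wider peaks. An empty row means that no listed peak overlapped the position, and neighbouring peaks are not drawn. On chromosome 4 the 3 bars of 1501 to 1628 bp nearly coincide, and on chromosome 16 the narrow peaks of HOXA9 and PML-RARa lie inside wider peaks of the other libraries.

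The highest-scoring narrow peaks of the PML-RARa list included a close pair found in no other list. The first, on chromosome 17 at 39980015 to 39983632, was 3.62 kb wide, with a score of 1800 at percentile 97.5 of the list. The second, at 39984819 to 39985810, was 0.992 kb wide with a score of 1429, at percentile 90.2. They were separated by 1.19 kb, no peak number was missing between them, and together they spanned 5.80 kb. Whether the pair lies in repeated sequence was not tested, as no mm9 sequence or repeat annotation was used here. The nearest peaks of other lists lay 2784 kb (MLL-AF9), 4114 kb (non-transduced) and 4372 kb (HOXA9) from the first, and the nearest wider PML-RARa peak was 2894 kb away. A single other pair of narrow peaks of 1 list within 10 kb was found, also in PML-RARa and without a partner in any list. It lay on chromosome 1 at 74434359 to 74437423 and 74439942 to 74442445. Unlike the chromosome 17 pair, these peaks stood near a wider PML-RARa peak of 26.7 kb, at 2.04 and 7.62 kb.

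Further high-scoring narrow peaks of PML-RARa lay at 89763500 to 89767759 of chromosome 3 (score 1545) and at 64779884 to 64783484 of chromosome 1 (score 1492). MLL-AF9 peaks of 7.69 and 5.29 kb overlapped them. A narrow peak on chromosome 1 at 59539146 to 59542998 (score 1451) was 2496 kb from the nearest peak of any list. The shortest peak of the series, 451 bp on chromosome 11 at 108872958 to 108873408, scored 1334 (percentile 83.1) and had no other peak within 916 kb. The next shortest were 504 bp on chromosome 11 at 102105759 to 102106262 (percentile 41.6) and 507 bp on chromosome 17 at 36282503 to 36283009 (percentile 67.0), neither of them matched. Their ranks thus ran from below the middle of the list to well above it.

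In the MLL-AF9 list the highest-scoring narrow peak, on chromosome 11 at 70039300 to 70044016 (score 1320, 4.72 kb), lay 5.95 kb from a wider peak of the same list and inside a PML-RARa peak of 18.4 kb. The next, on chromosome 1 at 136193687 to 136195528 (score 1315), was 1.84 kb wide and lay inside a non-transduced peak of 5.84 kb. Narrow MLL-AF9 peaks at 91029933 to 91032019 of chromosome 7 (score 1245) and at 21062645 to 21065583 of chromosome 2 (score 1215) had no partner. The shortest MLL-AF9 peaks without a mention so far were 1.67 kb on chromosome 17 at 56806372 to 56808042, unmatched, and 1.69 kb on chromosome 1 at 108069194 to 108070883, matched by a PML-RARa peak of 2.04 kb. MLL-AF9 thus had matched and unmatched peaks both among its highest-scoring and among its shortest narrow peaks.

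In the HOXA9 list, chromosome 16 at 92496971 to 92501902 (score 1091, 4.93 kb) lay under wider peaks of PML-RARa (7.28 kb) and MLL-AF9 (10.1 kb). Its neighbour in rank, on chromosome 13 at 59802972 to 59806714 (score 1085, 3.74 kb), was the HOXA9 narrow peak farthest from any other peak, 1421 kb. The shortest HOXA9 peak, 1.43 kb on chromosome 2 at 109758515 to 109759939, lay on a narrow MLL-AF9 peak of 2.72 kb and a PML-RARa peak of 10.7 kb. The third shortest, 2.06 kb on chromosome 5 at 123526865 to 123528928, lay on a narrow PML-RARa peak of 3.65 kb. Of the 7 HOXA9 peaks named for their score or shortness, 6 sat on a peak of another transduced library. With the non-transduced list not searched, 72.4% of all narrow HOXA9 peaks and 90.7% of the wider ones were matched. The named peaks on chromosome X and at 34571241 of chromosome 16 also met a non-transduced peak.

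The non-transduced list had 1 narrow peak at or above the 90th percentile of its scores, on chromosome 6 at 125367746 to 125368803, with a width of 1.06 kb and a percentile of 97.3. It lay 27.6 kb from a wider peak of the same list and 542 kb from the nearest peak of another list. The next in score, at 38684622 to 38687685 of chromosome 1 and at 30748071 to 30752644 of chromosome 9, both had a score of 1118. PML-RARa peaks of 9.96 and 8.70 kb lay over them, and the chromosome 1 peak also met an MLL-AF9 peak of 7.93 kb. Another at 71404078 to 71407901 of chromosome 8 (score 1107) was unmatched. On chromosome 7 at 19862460 to 19866840 a non-transduced peak of 4.38 kb (score 1067) met a HOXA9 peak of 4.47 kb, a PML-RARa peak of 18.9 kb and an MLL-AF9 peak of 12.1 kb. The shortest non-transduced peak, 998 bp on chromosome 2 at 165818581 to 165819578, met a narrow MLL-AF9 peak of 2.01 kb. On chromosome 6 at 119429980 to 119431295 a non-transduced peak of 1.32 kb coincided with a PML-RARa peak of 1.45 kb.

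The narrow peaks farthest from any other peak were those at 99783189 to 99785430 of chromosome 7 for PML-RARa (5468 kb), 32326498 to 32330482 of chromosome 4 for MLL-AF9 (3583 kb) and 17532275 to 17536379 of chromosome 8 for the non-transduced list (3430 kb). Their percentiles were 26.9 in PML-RARa, 24.3 in MLL-AF9 and 29.0 in the non-transduced list. The farthest HOXA9 peak, the one on chromosome 13, stood at percentile 81.7, so the farthest peaks were not all of low rank.

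High-scoring narrow peaks were set beside the other narrow peaks by matching and isolation, pooled over lists whose own shares differed. Of the 33 narrow peaks at or above the 75th percentile of their list, 16 were matched in another list (48.5%, 30.8 to 66.5), compared with 115 of the other 259 (44.4%, 38.3 to 50.7). No peak of any list lay within 100 kb of 9 of the 33 (27.3%, 13.3 to 45.5) and of 94 of the 259 (36.3%, 30.4 to 42.5). Their median widths were 3.74 and 3.71 kb, and 7 of the 33 against 35 of the 259 were under 2 kb. The intervals of both shares overlap between the 2 sets, which does not show that the sets are alike. Within the PML-RARa list, 7 of 18 high-scoring narrow peaks had a wider peak of the list within 50 kb, against 19 of the other 108. Alone within 100 kb stood 4 of the 18 (6.41 to 47.6%), against 55 of the 108 (41.1 to 60.7%). PML-RARa thus held 55 of the 94 pooled above. In HOXA9 1 of 5 high-scoring and 3 of 24 other narrow peaks stood alone. The counts were 3 of 6 and 20 of 70 in MLL-AF9, and 1 of 4 and 16 of 57 in the non-transduced list. A wider peak within 50 kb was found for 0 of 5 and 1 of 24 in HOXA9. It was found for 1 of 6 and 13 of 70 in MLL-AF9, and for 1 of 4 and 13 of 57 in the non-transduced list. Whether any narrow peak came from repeated sequence was not tested, since no mm9 sequence, repeat annotation or input signal was used here.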

How the data were processed

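ChIP-seq for H2AK119Ub was done on cross-linked, sonicated chromatin, per the labels' protocols. Bowtie, a read aligner, MACS2, a peak caller, and the mm9 assembly are named per the submitters' processing notes; their versions and parameters, and whether the input entered the call, were not given in the sources used here. The authors deposited 1 peak list per library, with chromosome, start, end, peak name and a score of unstated scale. The deposited score is the authors' own value, was at least 700 in every list, and was used only to rank peaks within a list. Positions as deposited follow the BED format and are printed here counting from 1. Lists called separately share no depth scale, so a difference in list length cannot be told apart from one in depth.

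Widths, distances between nearest ends and overlaps of at least 1 bp were computed with pandas 2.3.3, numpy 2.4.6 and scipy 1.17.1 under Python 3.11.15, and plotted with matplotlib 3.10.9; the code was tested on simulated data. No test was run. In each list the 5 highest-scoring and 3 shortest narrow peaks, the widest narrow and narrowest wider peak and the most distant narrow peak were named, with 8 positions shared by narrow peaks of several lists, ordered by the number of lists and then by mean percentile; the chromosome 1 pair of neighbouring peaks was named after its values were seen. The 13 narrow peaks on chromosome 18 were counted and not named. The members and these rules were chosen with earlier results of these data known. Genes were not assigned, since the gene table at hand is of a later assembly than mm9. The input library was not analysed here. Alternatives were other width limits, score filters, merging, and rules for matching.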

Additional observations from a re-analysis of the deposited data

How the results depend on the processing

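Each group had 1 library. No paired analysis was possible because no group has a second library and no result comes from a test. Of 92 recomputed values, 65 stayed within 1.5 times (numbers of peaks) or inside the 95% interval (shares and medians). Merging peaks within 1000 bp moved 1 value past its interval, the non-transduced score percentile (28.1). With a limit of 4 kb the narrow peaks numbered 18 in HOXA9, 79 in PML-RARa and 31 in the non-transduced list, and with 7.5 kb 78 in HOXA9, 280 in PML-RARa, 241 in MLL-AF9 and 162 in the non-transduced list. With the upper 50% by score they numbered 9 in HOXA9, 44 in PML-RARa, 18 in MLL-AF9 and 18 in the non-transduced list, since fewer peaks entered. Ranked anew within those shorter lists, the median percentile was 63.4 in HOXA9 (12.4 to 77.6) and 39.1 in PML-RARa. It was 47.4 in MLL-AF9 (22.5 to 66.4) and 25.4 in the non-transduced list (9.91 to 46.2). The low rank seen in the full lists was thus not seen in the HOXA9 median. In the same shorter lists the median distance to a wider peak of the list was 555 kb for PML-RARa and 863 kb for MLL-AF9.

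The share matched in another list changed by less than its interval when a gap of 1000 bp, coverage of 50% or the midpoint was the rule. In PML-RARa it was 37.1% with a limit of 7.5 kb and 15.9% in the upper 50% by score. At the length of the shortest list it was 51.7% in HOXA9, 14.8% in PML-RARa, 35.3% in MLL-AF9 and 35.7% in the non-transduced list. Without a search of the PML-RARa list, added after seeing the data, it was 55.2% in HOXA9, 22.4% in MLL-AF9 and 42.6% in the non-transduced list, and without the MLL-AF9 list, also added, 11.9% in PML-RARa. Leaving out the HOXA9 or the non-transduced list moved no share past its interval. Depth is unknown, so what it limits could not be measured.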

Other observations

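Many peaks of a list shared a score. A score held by another peak of the same list was found for 26 of 29 narrow peaks in HOXA9 (89.7%), 123 of 126 in PML-RARa (97.6%), 73 of 76 in MLL-AF9 (96.1%) and all 61 in the non-transduced list. Among wider peaks the shares were 86.8% in HOXA9, 93.3% in PML-RARa, 93.4% in MLL-AF9 and 93.2% in the non-transduced list. The scores 751, 839 and 928, picked as the 3 most common among narrow peaks, held 107 of the 292; since they were picked for being common there, no comparison with wider peaks is drawn.

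The smallest gap between neighbouring peaks of a list was 804 bp in HOXA9, 803 bp in PML-RARa, 802 bp in MLL-AF9 and 805 bp in the non-transduced list. Chromosome X held 6 narrow peaks among its 16 listed peaks (37.5%, interval 15.2 to 64.6), and 3 of the 6 were the shared position described above.

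A missing peak number lay beside 15 of 29 narrow peaks in HOXA9 (51.7%), 34 of 126 in PML-RARa (27.0%), 29 of 76 in MLL-AF9 (38.2%) and 21 of 61 in the non-transduced list (34.4%). For wider peaks the shares were 55.0% in HOXA9, 30.6% in PML-RARa, 37.3% in MLL-AF9 and 45.1% in the non-transduced list, within the intervals of the narrow shares. Matched and unmatched narrow peaks had median percentiles of 41.6 (interval 41.6 to 67.0) and 33.8 (interval 21.0 to 41.6) in PML-RARa and 37.1 (interval 24.3 to 45.2) and 20.6 (interval 8.10 to 24.3) in MLL-AF9, and in both lists the intervals touch. In HOXA9 and in the non-transduced list they overlapped.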
